A study of Drosophila melanogaster with 2 samples.

Results

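The distal intergenic peaks of CG8388 are the thresholded binding sites that lie outside every annotated gene and far from any coding promoter. They were the peaks whose summit fell in no gene span, transposable elements left aside, and lay more than 5000 bp from the nearest start of transcription (TSS) of any protein-coding gene. This rule took 556 of 6075 thresholded peaks, or 9.15%. Each summit was counted on its own, and the 556 lie in 554 distinct regions. Within the thresholded list, which was itself made from the signal and the agreement of both libraries, the rule used position only. The material was chromatin of whole mixed-sex Drosophila melanogaster embryos aged 0 to 14 h from a CG8388-GFP line, which carries CG8388 with GFP at its C-terminus. The chromatin was sonicated to fragments of 200 to 800 bp and precipitated with an anti-GFP antibody for sequencing (ChIP-seq). The 2 libraries, biological replicates 2 and 3, form 1 group and come from a single transgenic line. The promoter that drives the fusion is not given in the sources used here, and libraries of untagged flies, mock precipitates or input DNA were not analysed here. Read totals are not part of peak lists, so the depth of both libraries is unknown, and intervals below cover counting error only. In whole embryos, a site bound in more cells and a site bound more strongly per cell cannot be told apart.

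Intergenic DNA far from promoters often holds enhancers and silencers, short stretches that transcription factors bind and that act on a promoter at a distance. In fly embryos such elements are crowded around patterning genes, whose expression changes from one cell to the next. Some distal sites are instead bound by insulator proteins such as Su(Hw), a zinc-finger protein that also tethers chromatin loops. The gene annotation used here calls the CG8388 product an uncharacterized protein.

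The sequences at the summits of several such peaks are shown as examples, only some of them A/T-rich, and for the motif matches that set distal summits apart from their flanks. Each line gives the nearest protein-coding gene, the dm6 position and 75 bases of the plus strand on each side of the summit base, from the RefSeq copy of Release 6. The first 5 and salm are among the leading peaks that can be shown, CheA75a is the highest-ranked member with both A/T-rich matches within 50 bp of its summit, and lace is a further Su(Hw) match. Capitals mark every match, on either strand, to the TATA box, an A/T 8-mer or the Su(Hw) motif, whose letters are TATAAAA for the first, then ATTTAAAA for the second, and finally GCATACTT for the third.
eEF1gamma, chr3R:29214372-29214522: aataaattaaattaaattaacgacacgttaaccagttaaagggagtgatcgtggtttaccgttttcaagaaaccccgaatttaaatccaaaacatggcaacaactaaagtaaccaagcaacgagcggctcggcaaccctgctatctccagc
CG15282, chr2L:14701568-14701718: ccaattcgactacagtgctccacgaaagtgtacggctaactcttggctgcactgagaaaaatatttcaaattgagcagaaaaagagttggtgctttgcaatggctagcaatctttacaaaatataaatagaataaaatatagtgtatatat
croc, chr3L:21465616-21465766: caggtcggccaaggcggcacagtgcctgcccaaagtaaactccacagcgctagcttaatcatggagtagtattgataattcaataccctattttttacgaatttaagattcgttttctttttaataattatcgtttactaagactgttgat
chinmo, chr2L:1643366-1643516: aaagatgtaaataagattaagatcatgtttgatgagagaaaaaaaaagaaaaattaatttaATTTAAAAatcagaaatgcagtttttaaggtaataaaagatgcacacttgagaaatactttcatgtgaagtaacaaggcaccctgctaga
CG43245, chr3L:10752701-10752851: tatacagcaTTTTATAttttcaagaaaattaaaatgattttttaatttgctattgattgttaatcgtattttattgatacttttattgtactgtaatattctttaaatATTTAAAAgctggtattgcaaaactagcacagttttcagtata
salm, chr2L:11423948-11424098: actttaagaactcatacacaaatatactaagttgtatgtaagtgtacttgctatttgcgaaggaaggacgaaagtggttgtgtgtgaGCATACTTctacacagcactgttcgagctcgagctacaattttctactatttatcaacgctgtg
CheA75a, chr3L:18236497-18236647: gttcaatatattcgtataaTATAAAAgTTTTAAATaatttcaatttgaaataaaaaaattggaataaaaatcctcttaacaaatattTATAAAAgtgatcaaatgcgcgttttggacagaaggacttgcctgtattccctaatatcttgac
lace, chr2L:15506901-15507051: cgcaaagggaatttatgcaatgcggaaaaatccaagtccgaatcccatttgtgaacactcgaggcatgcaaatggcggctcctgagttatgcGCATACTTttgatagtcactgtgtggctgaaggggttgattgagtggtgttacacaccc

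The chinmo, CG43245 and CheA75a lines hold the A/T 8-mer, with CheA75a also holding 2 copies of the TATA box. The CG43245 line holds 1 TATA box match as well, more than 50 bp from the summit. The salm and lace lines hold Su(Hw) letters within the window of 50 bp on either side of the summit. GC content over the printed bases ran from 20.5% at CG43245 to 47.7% at lace.

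The strongest distal peaks were few and were found in both libraries. Distal peaks made up 1 of the 20 highest thresholded peaks, 3 of the 100 highest and 52 of the 1000 highest. The signal is the authors' own score per peak. Its scale is unstated, so it only orders the peaks of 1 list. The highest, nearest to blo at chr2R:8759325-8760016, had a signal of 3330 and rank 16 in the thresholded list, and it ranked 12 in replicate 2 and 25 in replicate 3. Its summit lay 10730 bp from the blo TSS but 127 bp past the 3' end of that gene. The next peak, at chr2R:13035139-13035536, lay in the 36.8 kb between Su(z)2, which encodes a Polycomb group protein, and CG13323. On the Su(z)2 side that interval begins at chr2R:13007912. The nearest coding TSS was that of CG13323, and the 3' end of CG13323 lay 9354 bp from the summit. This peak had a signal of 2414 and ranked 58 and 29 in replicates 2 and 3.

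Another peak was nearest to CG13321, in an interval that ends at Psc, the Polycomb group gene that is paired with Su(z)2. That summit, with a signal of 1259, lay between CG13321 and Psc, 5868 bp from the CG13321 TSS, and ranked 109 and 311 in replicates 2 and 3. The peak nearest to eEF1gamma, which encodes a subunit of a translation elongation factor, had a signal of 1715 and ranked 147 and 50. Its summit was 5725 bp from the coding TSS but 115 bp from the TSS of an annotated long non-coding RNA, lncRNA:CR31044. At CG15282, in the interval shared with osp, the signal was 1585 and the ranks were 92 and 138.

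The region nearest to croc, a forkhead transcription factor gene, carried a pair of summits in a single region of 750 bp. Their signals were 1364 and 803, and both matched the same replicate peaks, at ranks 77 and 374. Near chinmo, which encodes a BTB zinc-finger factor that sets temporal identity in neurons, summits 12470 and 7817 bp upstream of the TSS had signals of 1121 and 1022. They ranked 169 and 238 in replicate 2 and 319 and 324 in replicate 3. The salm peak lay between salr and salm, sister genes for spalt zinc-finger factors, 21591 bp downstream of the salm TSS, with a signal of 864. It ranked 252 in replicate 2 and 662 in replicate 3. The other leading peaks were nearest to CG13896, CG43245, CG7560, Ids and CG11550, with signals from 824 to 1145. All 15 leading distal peaks, each croc summit counted on its own, were among the 6075 highest of both replicates. The thresholded list was made from those same libraries.

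Across all members, 405 of 556 (72.8%) overlapped a peak among the 6075 highest of both replicates by at least 1 bp. Another 81 did so in replicate 2 alone, 65 in replicate 3 alone and 5 in neither. With all 30000 listed peaks of each replicate, 554 were listed in replicate 2, 551 in replicate 3 and 549 in both. Where both replicates listed a peak, their summits lay a median of 24.0 bp apart, with quartiles of 12.0 and 49.0 bp. The share in both leading lists fell along the signal order, from 100% of the 139 highest members through 96.4% and 73.4% to 21.6% of the 139 lowest. That order comes from the same libraries as the leading lists, so the fall is not a separate test of their agreement.

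Recovery was set against 2 other classes. The first held 1810 gene-proximal intergenic peaks, outside genes and within 5000 bp of a coding TSS, and the second 937 intronic peaks over 5000 bp from one. In both leading lists stood 73.7% of the proximal class (odds ratio 0.956, 95% interval 0.772 to 1.18) and 70.5% of the intronic class (odds ratio 1.12, 0.886 to 1.41), and the adjusted two-sided Fisher exact p was 1.00 for each. When the overlap had to cover 50% of both peaks, the odds ratio against proximal peaks was 0.745 (adjusted Fisher exact p = 0.00784), and with all listed peaks it was 2.49 (adjusted exact p = 0.0347), so this comparison has no fixed direction. With the highest peak of each intergenic interval alone, which leaves the strongest members, it was 1.30 against proximal peaks (adjusted exact p = 0.140) and 1.52 against intronic ones (adjusted exact p = 0.0339).

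**Figure D1:**
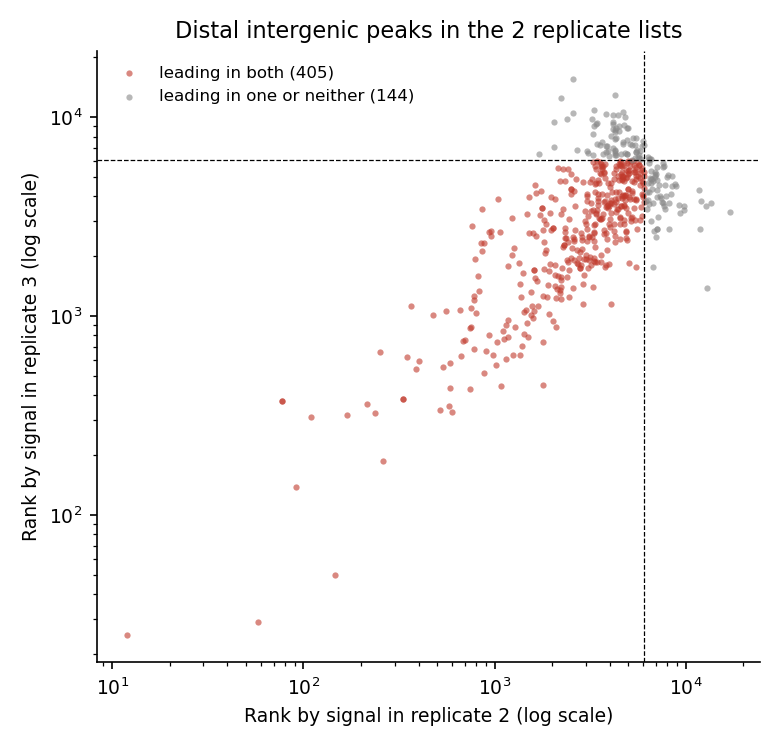
Each point is 1 of the 549 distal intergenic peaks that both replicates list, at its rank by signal in replicate 2 and in replicate 3, both on log scales. Dashed lines mark rank 6075. The 405 red points are among the leading 6075 of both lists, and the strongest peak, nearest to blo, lies at 12 and 25.

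Distal peaks were weaker and narrower than gene-proximal ones, and neither difference from intronic distal peaks passed the test. The median signal was 209 for distal peaks (quartiles 164 and 310), 249 for proximal peaks (178 and 416) and 219 for intronic peaks (166 and 326). The ranges overlapped almost entirely at the lower end, since every class began at 134 or 135, the limit of the list. At the upper end, the highest distal peak reached 3330 and the highest proximal one 27855. Of the distal peaks, 39.0% had a signal above the median of the whole list, compared with 52.2% of the proximal peaks (odds ratio 0.586, 95% interval 0.483 to 0.712, adjusted p of a two-sided Fisher exact test 3.17e-07) and 43.1% of the intronic peaks (0.845, 0.682 to 1.05, adjusted exact p = 0.215). Against proximal peaks, the odds ratio was 0.800 for the 314 peaks over 10000 bp from a TSS (adjusted exact p = 0.207). With only the distal peak of highest signal kept in each interval, and all proximal peaks kept, it was 0.865 (adjusted exact p = 0.371). That choice by signal raises the distal share by itself, so the last value cannot show whether the difference holds.

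The median width was 260 bp for distal, 343 bp for proximal and 284 bp for intronic peaks. Widths above the median of the whole list were seen in 41.4% of distal and 54.1% of proximal peaks (odds ratio 0.598, 0.493 to 0.725, adjusted Fisher exact p = 4.57e-07), while the intronic share was 44.9% (0.865, 0.700 to 1.07, adjusted exact p = 0.234). In the lists of single replicates this comparison carries little. Of the 6075 leading peaks, 3374 share a width of 416 bp in replicate 2 and 3127 share 364 bp in replicate 3, so only 9 of 565 distal and 63 of 1845 proximal peaks of replicate 2 were wider than the median. In replicate 3 alone they were 10 of 521 and 41 of 1769 (odds ratio 0.855, adjusted exact p = 0.835).

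The pooled list of 30000 peaks, which includes every thresholded peak, held 3701 summits that meet the distal rule, and 15% of them passed the threshold. Proximal pooled peaks passed in 27.0% (odds ratio 0.478, 0.430 to 0.531, adjusted Fisher exact p = 4.98e-46) and intronic ones in 16.2% (0.918, 0.819 to 1.03, adjusted exact p = 0.141). The 3145 distal pooled peaks that did not pass are called lower-ranked distal peaks below.

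**Figure D2:**
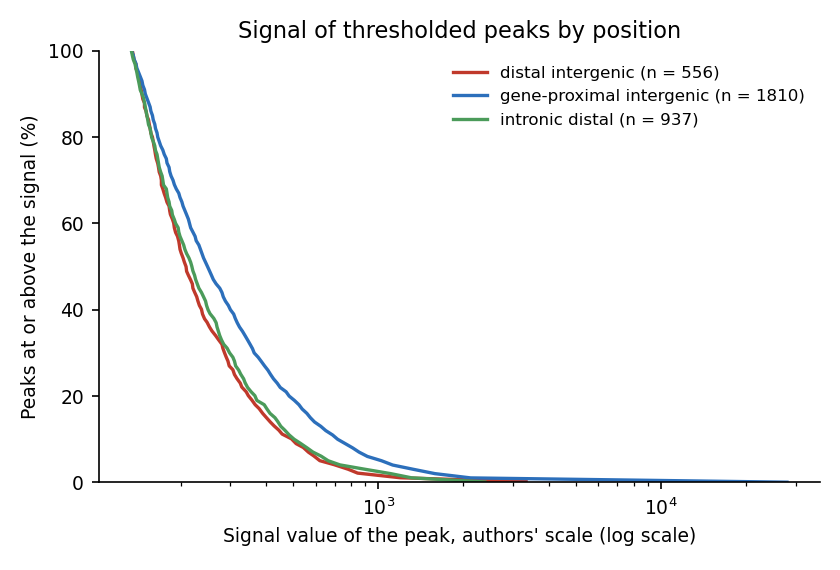
The curves give the share of peaks (%) at or above each signal value on the authors' scale (log axis) for 556 distal intergenic, 1810 gene-proximal intergenic and 937 intronic distal peaks. The distal and intronic curves run close together, with medians of 209 and 219, and the proximal curve lies to their right, with a median of 249.

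The members lay a median of 10820 bp from the nearest coding TSS, with quartiles of 7450 and 17095 bp. They were on either side of that TSS about equally, with 289 upstream and 267 downstream of it. The upstream share of 52.0% compared with 53.3% of lower-ranked distal peaks (odds ratio 0.949, 0.792 to 1.14, adjusted exact p = 0.695). The summits just inside the limit were nearest to CG13481, at 5010 bp with a signal of 142, and CG4074, at 5082 bp with a signal of 200. Just outside it were CG12290, at 4976 bp with a signal of 158, and CG12689, at 4981 bp with a signal of 331.

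The farthest summits lay 72169 and 63961 bp from the Cyp12e1 TSS and 60335 bp from the Prat2 TSS, and their neighbours on the other side were hth, a homeodomain gene, and vvl, a POU-domain factor gene. They were modest peaks, with signals of 206 and 177 near Cyp12e1 and 341 near Prat2. Of the 102 members over 20000 bp away, 73.5% were in both leading lists, compared with 70.7% of the 242 within 10000 bp (odds ratio 1.14, 0.683 to 1.92, adjusted exact p = 0.695). Signals above the list median were found in 42.2% and 32.2% (odds ratio 1.53, 0.953 to 2.46, adjusted exact p = 0.218).

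Distance from coding promoters did not mean distance from all transcripts. A TSS of an annotated RNA gene or pseudogene lay within 5000 bp of 208 members (37.4%), compared with 31.6% of lower-ranked distal peaks (odds ratio 1.29, 1.07 to 1.56, adjusted Fisher exact p = 0.0239) and 16.9% of the bases that meet the distal rule. Within 500 bp the shares were 4.68%, 3.85% and 1.57% (odds ratio 1.24, 0.809 to 1.91, adjusted exact p = 0.347). The 3' end of a coding gene lay within 500 bp of 15 members, or 2.70%, compared with 1.88% of lower-ranked peaks (odds ratio 1.48, 0.843 to 2.62, adjusted exact p = 0.287). Annotated transposable elements, which cover 13.0% of the bases meeting the rule, held 2 of the 556 summits and 35 of the 3145 lower-ranked ones (odds ratio 0.395, 0.109 to 1.43, adjusted exact p = 0.218). Peak lists do not show how well reads could be placed in such elements, and this was not tested.

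Many members stood in groups within a single stretch between genes. Such an interval ends at the nearest annotated gene of any kind on each side, RNA genes included. The 556 peaks fell in 317 intergenic intervals, of which 203 held 1 member, 49 held 2, 31 held 3, 21 held 4 and 13 held 5 or more. Those 13 intervals together held 78 members. The fullest, 33.0 kb from tRNA:Ile-TAT-1-2 to CG13898 at chr3L:770463-803426, held 10, of which 7 were in both leading lists and the highest signal was 698. A separate 14.0 kb on the other side of tRNA genes, next to hng3, held 3. A stretch of 19.1 kb between lncRNA:CR44363 and CG7560 held 8 with a highest signal of 846. The 75 kb between NijA and CG43245 held 7, all of them in both leading lists, with a highest signal of 1007. Lower-ranked distal peaks stood in the same intervals, 18 in the fullest, 10 next to CG7560 and 35 between NijA and CG43245. Whether members group more than lower-ranked distal peaks do was not tested.

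A stretch of 28.7 kb between a pair of long non-coding RNA genes, with CG15283 and noc as the nearest coding genes on its sides, held 6 members, 4 of them in both leading lists. It also held 21 lower-ranked distal peaks. The noc gene encodes a zinc-finger protein of eye and head development. The 70.5 kb from vvl to lncRNA:CR45115 held 6 members, 5 of them in both, and 37 lower-ranked distal peaks. Further on towards Prat2, stretches of 16.9 and 28.4 kb held 1 each. The 26 kb between Syx7 and croc held 5 members, all in both, and 11 lower-ranked distal peaks. Between CG7320 and CheA75a, annotated RNA genes divide the DNA into stretches of 27.0 kb with 6 members and 8.94 kb with 5. These held 11 and 6 lower-ranked distal peaks, in that order. A thresholded summit of any class lay within 2000 bp of 32.9% of the members, compared with 30.6% of proximal peaks (odds ratio 1.11, 0.909 to 1.36, adjusted Fisher exact p = 0.327) and 30.4% of intronic peaks (1.12, 0.897 to 1.41, adjusted exact p = 0.327). Against proximal peaks the direction turned with the rule: when TSSs of RNA genes also counted, 348 members were left and the odds ratio was 0.742 (adjusted exact p = 0.0410), while it was 1.44 for the 859 over 2000 bp from a coding TSS (adjusted exact p = 0.000142).

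**Figure D3:**
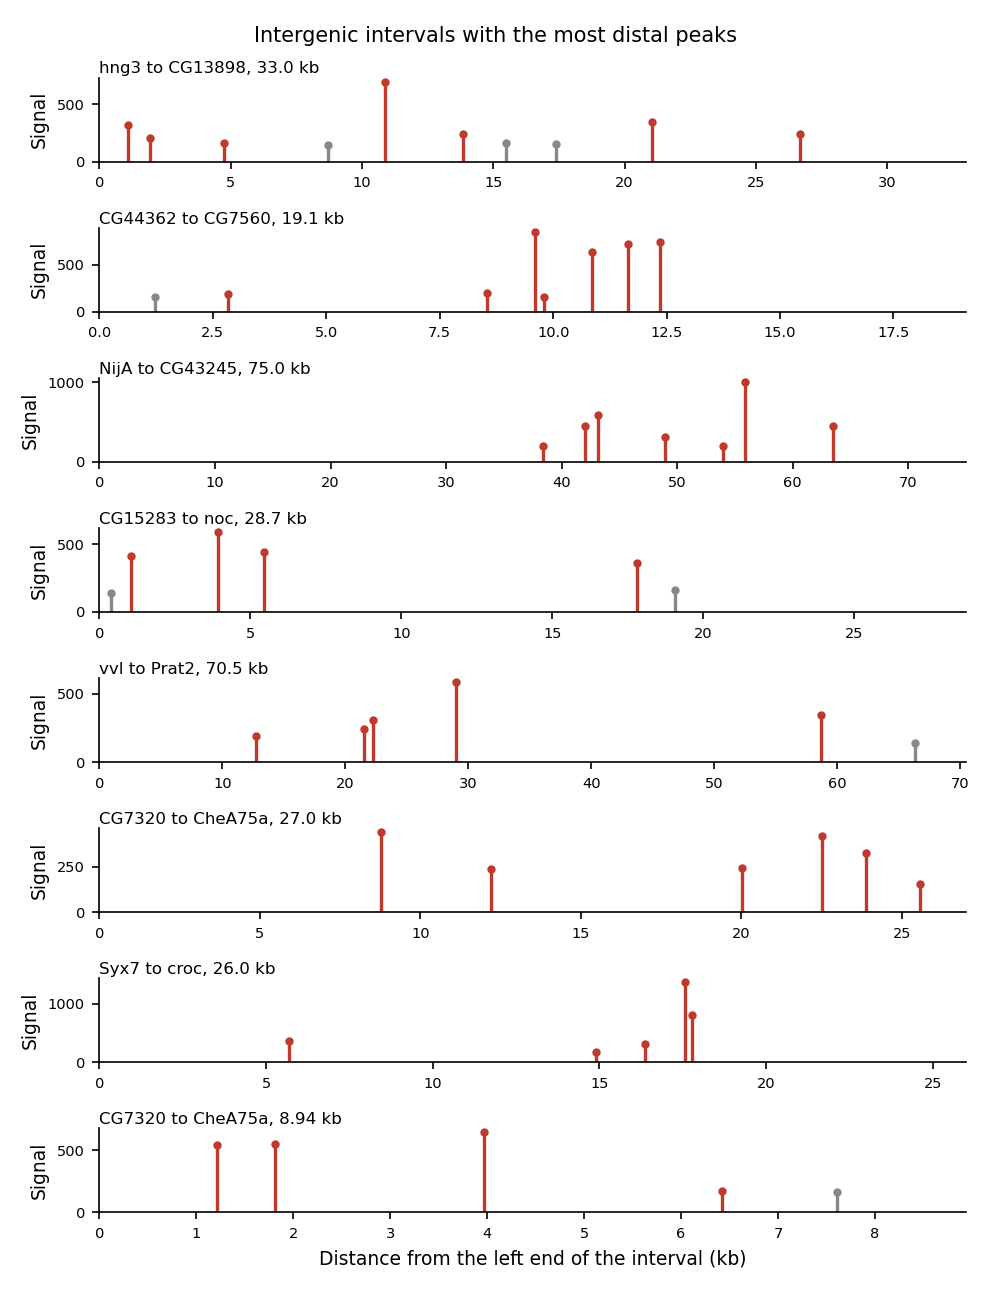
Each panel is 1 of the 8 intergenic intervals with the most distal peaks, titled by the nearest protein-coding gene on each side, although an RNA gene may end the interval first, with distance from its left end (kb) against the signal of each peak on the authors' scale. Red stems are members in the leading lists of both replicates and grey stems are the others. The croc interval has its highest pair of peaks, 1364 and 803, close together.

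By chromosome arm, 3L held 211 members (37.9%), 2L held 131, 3R held 102, 2R held 56, X held 52 and the small chromosome 4 held 4. The rule was met by 24.2 Mb of sequence, so the mean density was 23.0 members per Mb. Every base that meets the rule counts here, whether or not reads could be placed there. Densities were 32.3 per Mb on 3L, 30.7 on 2L and 25.6 on chromosome 4, but 22.2 on 3R, 15.1 on X and 10.8 on 2R. Lower-ranked distal peaks were spread in a like way apart from chromosome 4, with 32.4% on 3L. They stood at 156 per Mb on 3L, 170 on 2L, 128 on 3R, 113 on X, 78.8 on 2R and 64.1 on chromosome 4. Relative to them, no arm differed past the threshold in Benjamini-Hochberg adjusted Fisher exact tests, and 2 of 6 arms had an unadjusted p under 0.05. These were 3L (odds ratio 1.28, 1.06 to 1.54, adjusted exact p = 0.0763) and X (odds ratio 0.732, 0.541 to 0.992, adjusted exact p = 0.105). Among the 3037 highest peaks of the list, 3L passed the test with an odds ratio of 1.56 (adjusted exact p = 0.00649) and X with 0.428 (adjusted exact p = 0.00649). The peaks of replicate 2 alone also gave 3L a higher share (odds ratio 1.39, adjusted exact p = 0.00345).

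The base composition at distal summits was a narrow A/T-rich core inside a GC-rich shoulder. Mean GC content in windows of 51 bp was 31.0% ± 10.1 (SD, n = 556 peaks) at the summit, 46.4% ± 11.1 at 300 bp to its left and 40.1% ± 11.6 at 800 bp. Lower-ranked distal peaks had a shallower core, at 37.9% ± 12.3 (n = 3145). Proximal peaks went down to 30.1% ± 11.1 (n = 1810) and intronic distal ones to 31.3% ± 10.3 (n = 937).

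Peak by peak, GC content in the 101 bp around the summit was below the mean of its flanks, windows of the same size centred 400 bp to each side, in 476 of 556 members (85.6%, Wilson 95% interval 82.4 to 88.3). The share was 60.6% of lower-ranked distal peaks (odds ratio 3.85, 3.01 to 4.93, adjusted Fisher exact p = 7.55e-33), 85.2% of proximal peaks (1.03, 0.787 to 1.35, adjusted exact p = 0.838) and 82.5% of intronic peaks (1.26, 0.942 to 1.68, adjusted exact p = 0.193). With 1 peak per interval in both lists, the difference from lower-ranked peaks was smaller, with an odds ratio of 1.76 (adjusted exact p = 0.00114). The comparison with proximal peaks had no fixed direction: it was 1.38 in replicate 3 alone (adjusted exact p = 0.0217) and 0.699 in replicate 2 alone (adjusted exact p = 0.0110). In 101 bp windows, GC content was above the median of all thresholded peaks in 47.5% of distal, 43.9% of proximal (odds ratio 1.16, 0.956 to 1.40, adjusted exact p = 0.215) and 48.2% of intronic peaks (0.970, 0.787 to 1.20, adjusted exact p = 0.789), but among the 3037 highest peaks it was more often above in distal than in proximal ones (odds ratio 1.52, adjusted exact p = 0.0124). From the highest to the lowest 139 members the mean GC contents were close, with values of 31.0%, 31.4%, 30.5% and 31.9%.

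**Figure D4:**
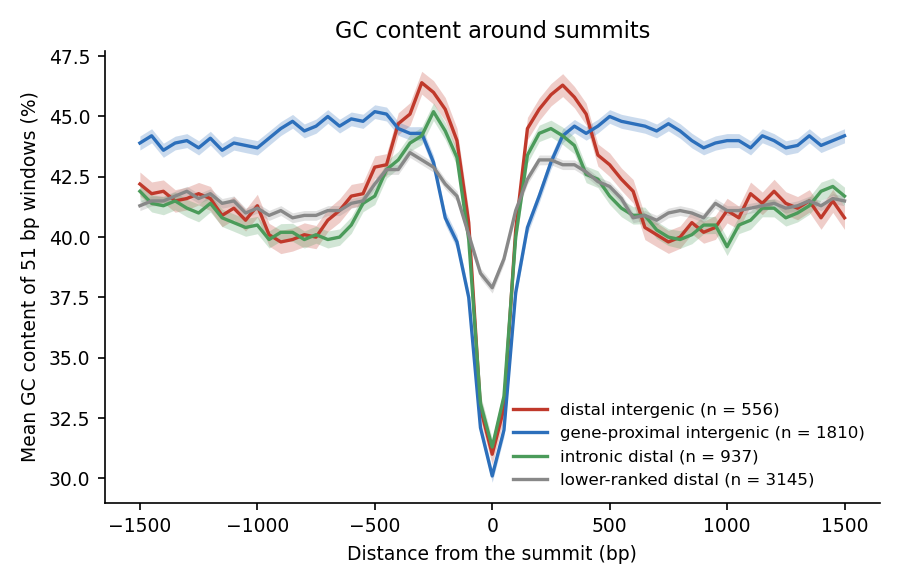
Mean GC content (%) of 51 bp windows is drawn against distance from the summit (bp), with bands of 1 standard error over peaks. Distal intergenic peaks (n = 556) fall from 46.4% at 300 bp to 31.0% at the summit, and lower-ranked distal peaks (n = 3145) reach only 37.9%.

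Short sequence motifs were searched on both strands in the 101 bp around each summit. The 26 motifs were GAGAGAG for GAGA factor, TATCGATA for the DNA replication-related element (DRE), GCATACTT for Su(Hw), AGGNGGCG for CTCF, GGTCACACT for promoter motif 1, CAGGTAG for Zelda, CACATG as E-box 1, CAGGTG as E-box 2, CAGCTG as E-box 3, CATATG as E-box 4, GATAAG for GATA factors, TAATTA for homeodomains, TTTATG for Caudal, GGATTA for Bicoid, CTTTGAT for TCF, GTGGGAA for Su(H), CAAGTG for Nkx factors, TGANTCA for AP-1, AACNGGTT for Grainyhead, TTCNNNGAA for STAT factors, CCGGAAG for Ets, GCCATTTT for Pho, TATAAAA for the TATA box, ATTTAAAA for the A/T 8-mer, AAAAAAAA for the A tract and CACACACA for the CA repeat. Matches may overlap, and the TATA box and the A/T 8-mer share their last bases.

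Against the flanks of the same peaks, 6 of 26 motifs differed (23.1%), with 3 more frequent and 3 less frequent at the summit, and 9 had an unadjusted p under 0.05. The TATA box was found in 52 members, or 9.35% compared with 2.79% of flank windows (odds ratio 3.57, 2.27 to 5.63, adjusted Fisher exact p = 7.32e-07). It occurred in 11.4% of all thresholded summit windows. Its carriers included CG13321, CheA75a, wg, tup and Toll-6, and 40 of the 52 were in both leading lists. The A/T 8-mer was found in 34 members, or 6.12% compared with 1.35% (odds ratio 4.68, 2.54 to 8.59, adjusted exact p = 2.88e-06), and in 7% of all thresholded windows. It lay at the summits near CG13896, chinmo, CG43245 and CG11550, all among the leading peaks. The motifs were chosen with earlier results of these data known, so these p-values are not independent support.

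The Su(Hw) letters were rarer, in 8 members or 1.44% compared with 0.270% of flanks (odds ratio 4.91, 1.41 to 17.1, adjusted Fisher exact p = 0.0374), and in 1.12% of all thresholded windows. Those 8 summits were nearest to salm, Zasp52, lace, CG13251, CG6012, Tollo, Chsy and CG12464, and 7 of them were in both leading lists. The lace peak, whose sequence is shown above, had a signal of 403 and ranked 955 in replicate 2 and 2666 in replicate 3. Less frequent at summits were the E-box 3 letters (1.98% compared with 6.12%, odds ratio 0.321, adjusted exact p = 0.00102), the E-box 1 letters (3.06% compared with 6.12%, odds ratio 0.495, adjusted exact p = 0.0340) and the CA repeat (1.44% compared with 3.96%, odds ratio 0.372, adjusted exact p = 0.0278).

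These calls changed with the settings. The windows at 400 bp lie in the GC-rich shoulder, and with windows centred at 1000 bp none of the 6 passed, the odds ratios of the TATA box, the A/T 8-mer and Su(Hw) being 1.88, 1.89 and 4.91 (adjusted exact p = 0.0586, 0.0853 and 0.0853). The Su(Hw) call was kept in 4 of 10 settings. It was also lost over 10000 bp from a TSS (odds ratio 6.06, adjusted exact p = 0.194), with TSSs of RNA genes counted (4.35, adjusted exact p = 0.0997), in the 3037 highest peaks (6.09, adjusted exact p = 0.255), with windows of 100 bp to each side (2.83, adjusted exact p = 0.0937) and with 1 peak per interval (6.11, adjusted exact p = 0.0521). The E-box 1 call was kept in 3 of 10 and was lost in the lists of single replicates, with an odds ratio of 0.752 in replicate 3 (adjusted exact p = 0.616) and 0.559 in replicate 2 (adjusted exact p = 0.0866). The CA repeat was kept in 4 of 10 and was lost in replicate 3 (0.723, adjusted exact p = 0.814). The A/T 8-mer and the TATA box were kept in 8 and 9 of 10. The part of GC content in these matches was not tested.

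Compared with gene-proximal summits, 2 of 26 motifs differed (7.69%), both of them less frequent at distal summits, and 3 had an unadjusted p under 0.05. The DRE, a promoter element of housekeeping genes, was found in 1 member (0.180%) and in 39 proximal windows (2.15%; odds ratio 0.121, 0.0237 to 0.620, adjusted exact p = 0.0125). The TATA box was less frequent than at proximal summits, at 9.35% compared with 14.1% (odds ratio 0.634, 0.463 to 0.867, adjusted exact p = 0.0401). Neither call held for the 314 peaks over 10000 bp from a TSS (adjusted exact p = 0.192 for the DRE and 0.382 for the TATA box). With the 348 members left when TSSs of RNA genes counted, the adjusted exact p was 0.592 and 0.864, and with 1 peak per interval it was 0.197 and 0.0924. In all, the DRE call was kept in 6 of 10 settings and the TATA box call in 4 of 10. The latter was also lost in replicate 3 alone (odds ratio 0.827, adjusted exact p = 0.496) and with the limit at 2000 bp (0.748, adjusted exact p = 0.141). Compared with lower-ranked distal summits, 0 of 26 motifs differed (0%) by the same test, with 2 at an unadjusted p under 0.05.

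**Figure D5:**
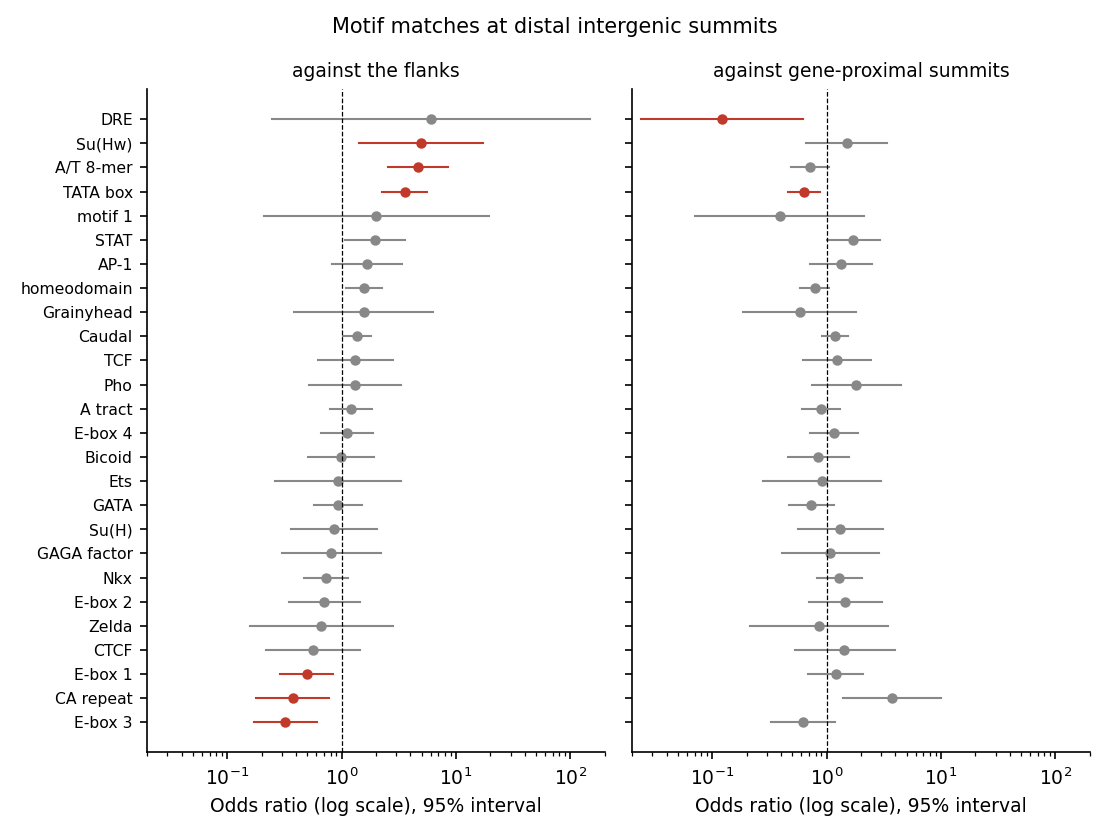
Points are odds ratios (log axis) and lines 95% intervals for 26 motifs at 556 distal summits, against their own flanks on the left and against 1810 gene-proximal summits on the right. Red marks the 6 and 2 motifs that passed the adjusted Fisher exact test, among them the TATA box in both panels, at 3.57 and 0.634.

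Sequences of 6 bases were also ranked without a motif list, by how much more often they occurred at distal than at lower-ranked distal summits on 2L and 3L, and the leading 10 were tested on the other arms. There, 6 of 10 passed (60.0%), all more frequent at distal summits. They were TTTAAA, in 24.8% of 214 members compared with 13.9% of 1399 lower-ranked peaks (odds ratio 2.05, 1.46 to 2.90, adjusted Fisher exact p = 0.000945), then AAATAT and also AATCTA, followed by AAAGTA and then TTAAAA and lastly AATATT. The AATCTA letters had the highest odds ratio, 2.46 (1.50 to 4.03, adjusted exact p = 0.00342). All 6 consist mostly of A and T, the bases in which distal summits are richer than lower-ranked ones, and the part of base composition in these counts was not tested.

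The nearest genes included regulators of embryonic patterning. A distal peak was nearest to 309 of 13945 protein-coding genes (2.22%), or 14.8% of the 2083 genes that have any base meeting the rule. The largest group of such genes in 15 lists was the homeodomain factors outside the Hox clusters, 20 of 76, or 41.7% of the 48 with such bases. With 43 members in their 0.722 Mb, the homeodomain genes had 59.6 distal peaks per Mb compared with 23.0 over all genes. Their lower-ranked peaks were also dense, at 261 per Mb compared with 130, and 18.6% of their distal pooled peaks passed the threshold compared with 15% overall. Members of several lists share loci, and no test was run on the lists. Densities per Mb count every base that meets the rule, whether or not reads could be placed there. Transposable elements cover 13.0% of these bases over all genes and held 2 of the 556 summits. The part of such sequence in each list was not tested.

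Among the homeodomain genes, tup, which encodes the Islet-type LIM factor, was nearest to 6 distal peaks, the highest with a signal of 482. The vvl gene was nearest to 4, up to a signal of 585 that ranked 742 in replicate 2 and 876 in replicate 3. Single peaks or pairs stood near eyg, a Pax-type factor (signal 777, ranks 404 and 591), and B-H2, a Bar factor (signal 500, ranks 832 and 1332). Of the 8 Hox genes, only 5 have any base meeting the rule. Dfd alone was nearest to a member, with a signal of 279 at 26893 bp. That 1 member in 0.0497 Mb gave the Hox list 20.1 members per Mb, close to the 23.0 over all genes. Its lower-ranked peaks stood at 181 per Mb compared with 130.

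The T-box, forkhead, Sox and GATA list had 8 of 33 genes nearest to a member and 111 members per Mb. Its lower-ranked peaks were also dense, at 384 per Mb, and 22.4% of its distal pooled peaks passed the threshold. The T-box gene mid was nearest to 7 distal peaks, up to a signal of 549 (ranks 796 and 1036), and its neighbour H15 to 3. The forkhead gene croc was nearest to 4 and the T-box gene Doc2 to 2. Of the gap and pair-rule genes, which divide the early embryo into segments, 7 of 21 were nearest to a member, at 66.7 per Mb. They included knrl, opa, sob and slp2, with signals from 222 to 294. Lower-ranked peaks of the gap and pair-rule list stood at 306 per Mb, and 17.9% of its distal pooled peaks passed the threshold.

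Segment polarity, Wnt and hedgehog genes were nearest to a member in 5 of 26 cases, at 86.1 per Mb. Of the 16 members of that list, 7 were nearest to mid and 3 to H15, which the T-box list also counts. Lower-ranked peaks of the list stood at 312 per Mb, and 21.6% of its distal pooled peaks passed the threshold. The Wnt ligand gene wg was nearest to 4, from 11064 to 14982 bp upstream of its TSS, with signals from 163 to 532. The Hedgehog receptor gene ptc had a peak 5296 bp upstream with a signal of 619, ranked 1084 in replicate 2 and 445 in replicate 3, and its ligand gene hh a peak at 7283 bp with a signal of 266. Signalling ligand genes matched by symbol had 84.4 members and 304 lower-ranked peaks per Mb, and 21.7% of their distal pooled peaks passed. Of these genes, 5 of 26 were counted, and they also included ths, an FGF ligand gene, and upd1, a ligand gene of the JAK/STAT pathway. The Notch ligand gene Delta, which its older symbol did not match, is outside that count. It was nearest to 1 member, with a signal of 175, and is named after its value was seen.

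Proneural and neuroblast genes were counted in 5 of 26 cases, among them the Sox genes D and SoxN, sna and pros. They had 62.4 members and 259 lower-ranked peaks per Mb, and 19.4% of their distal pooled peaks passed. The pros peak, with a signal of 160, was at rank 10819 in replicate 2 and was not listed in replicate 3. Dorsoventral and mesoderm genes gave 2 of 26, sna and zfh1, with signals of 169 and 147. They had 26.5 members and 292 lower-ranked peaks per Mb, and 8.33% of their distal pooled peaks passed.

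The other lists held smaller shares of all their genes nearest to a member, from 0% to 4.76%. Of genes with bases meeting the rule the order differed, with nuclear receptors at 16.7%, like dorsoventral genes, compared with 14.8% over all genes. Axon guidance and synaptic adhesion genes gave 5 of 117, or 9.43% of the 53 with bases meeting the rule, at 12.8 members per Mb. Toll-6, a Toll-family receptor gene, was nearest to 6 of those 12 members and caps, a leucine-rich repeat receptor gene, to 3, up to a signal of 781. Odorant, gustatory and ionotropic receptor genes gave 6 of 179 (14.0% of those with such bases), including Or67c and Or65a, with 19.7 members per Mb. Cuticle protein genes gave 2 of 123 (12.5% of those with such bases), at 56.1 per Mb of their 0.0356 Mb. Nuclear receptors gave 1 of 21, at 13.6 per Mb. Cytosolic ribosomal protein genes gave 1 of 82 (11.1% of those with such bases), RpL10, at 3.63 per Mb, and their lower-ranked peaks also stood at 3.63. Neuropeptide genes and their receptors gave 0 of 69, of which 18 have bases meeting the rule. Of the 20 insulator and promoter-binding protein genes only 1 has any such base, so they could hardly be counted, and the count was 0.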

How the data were processed

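Peak lists in narrowPeak format on dm6 were deposited for each replicate, for the pooled replicates and as a list passing an irreproducible discovery rate threshold. Peaks were called against a control alignment, per the notes deposited with the files. No source used here names the aligner, the caller or the threshold. The signal score and the −log10 q-value were deposited by the authors, and only the score was used, to rank peaks. Each of the other lists holds 30000 peaks, and the pooled list contains all 6075 thresholded peaks. Summits came from the deposited offset column. Read depth is unknown.

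Gene models were Ensembl release 115, sequence RefSeq Release 6, and coordinates 1-based. Differences between shares were tested by two-sided Fisher exact tests (scipy 1.17.1, Python 3.11.15), with Benjamini-Hochberg adjustment within each family and a threshold of 0.05. Intervals are Wilson or Woolf 95% intervals. These tests treat peaks as independent, which neighbouring peaks are not. The motif test was also run on windows drawn at random from the genome. A planted motif was called in 20 of 20 draws, and draws without it gave 0.0500 false calls each. Those windows were independent and drawn alike for both groups. The run therefore does not cover neighbouring peaks or the GC difference between summits and flanks. Members, lists, motifs and tests were chosen with earlier results of these data known. Named were the 15 highest distal peaks, the 8 fullest intervals, the 3 farthest summits, the 2 nearest the limit on each side, and up to 4 genes per list. The GC, 6-mer, transposable element, distance band and RNA gene comparisons were added after seeing the data, as was the setting with 1 peak per interval. Of the list symbols, 3 (rough, Dl and Z4) were not matched, Dl although the annotation holds that gene as Delta.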

Additional observations from a re-analysis of the deposited data

How the results depend on the processing

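No paired analysis was possible because both libraries belong to a single group. Over 15 other settings, 51 of 198 summary values crossed the threshold, turned direction or, for counts, moved by over 1.5 times, and the cause was not tested. Values below are odds ratios of distal against the named peaks, or counts of motifs and arms that passed. RefSeq gene models also gave 556 members and changed no call. The share of GC-poor summits stayed above that of lower-ranked distal peaks in all settings run, from 1.76 to 4.33. The lower share past the threshold than among proximal peaks held wherever it was rerun.

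With the limit at 2000 bp, neighbours within reach were 1.44 against proximal peaks, high signal 0.790 and passing the threshold 0.883 against intronic peaks. Of the arms, 1 was higher and 1 lower, of the motifs 1 and 1 against lower-ranked peaks, and 1 was lower against proximal ones. With the limit at 10000 bp, high signal was 0.800 against proximal and 1.19 against intronic peaks, passing the threshold was 1.04 against intronic peaks, and 1 motif was lower against flanks and 0 against proximal peaks. With TSSs of RNA genes counted, neighbours were 0.742 against proximal and 0.780 against intronic peaks, passing was 0.843 against intronic peaks, CTCF letters were 0.524 against proximal peaks, and 1 and 0 motifs were lower against flanks and proximal peaks.

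In the 3037 highest peaks, GC content above the median was 1.52, neighbours 1.57 and GC-poor summits 0.555 against proximal peaks, and the last 0.840 against intronic peaks. There, 1 arm was higher and 1 lower, 1 motif was higher and 0 lower against flanks, and 0 were lower against proximal peaks. E-box 2 was 2.40 against flanks, and E-box 3 was 1.61 and Su(H) 0.479 against proximal peaks. Recovery against proximal peaks was 0.745 with overlap of 50% of both peaks and 2.49 with all listed peaks. With windows of 100 bp to each side, 5 motifs were lower against flanks, 1 against lower-ranked peaks, and 2 were higher and 5 lower against proximal peaks. With flanks at 1000 bp, GC-poor summits were 0.714 against proximal peaks, and 0 motifs were higher and 0 lower than in flanks.

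With 1 peak per interval, chosen after seeing the data, recovery was 1.30 against proximal and 1.52 against intronic peaks, high signal 0.865 and 1.24, and GC-poor summits 0.772 against proximal peaks. This setting kept the distal peak of highest signal in each interval but all proximal and intronic peaks. Its recovery and high signal values therefore cannot test those comparisons. Then 1 motif was lower against flanks and 0 against proximal peaks, the TATA box was 0.788 against lower-ranked peaks and the A tract 0.749 against flanks. By replicate, values against proximal peaks ran from 0.479 to 0.855 for large width (most widths are tied in both lists), 0.852 to 1.36 for GC content and 0.699 to 1.38 for GC-poor summits. Large width against intronic peaks ran from 0.618 to 1.15, and the arms passing as higher, like the motifs higher than in lower-ranked peaks, from 0 to 1. Su(H) against proximal peaks ran from 0.528 to 1.01. Of 828 values for single motifs and arms, 65 changed their call or direction. Read depth is unknown, and shares of a few peaks, as for Su(Hw), have wide intervals.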
